A study of Mus musculus with 6 samples.

Results

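Interferon-stimulated genes are the transcripts that cells make more of when interferon binds its receptors, and they carry much of the antiviral defence that a cell mounts on its own. The gene set held 43 such genes, taken by name from the textbook interferon response. Each was taken from the probe set entries that the array annotation gives to that gene alone, with the brightest entry used where a gene had several. This left 36 genes of the 19938 genes with an entry of their own. Another 6 (Ifi204, Oas1g, Isg15, Gbp2, Gbp6 and Igtp) lay only on entries shared with other genes and were given no value, and Ifi44 was not analysed here.

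RNA from 6 samples was hybridised to single-colour Affymetrix whole-transcript arrays, 1 array per sample. Mouse embryonic fibroblasts (MEF) were grown in culture from C57BL/6JJcl embryos at E11.5 to E13.5. Lymph node (LN) stroma was sorted freshly from enzymatically digested nodes of adult C57BL/6JJcl mice as cells that lacked CD45 and CD31 and carried both podoplanin and VCAM-1. BLS4 and BLS12 are stromal cell lines from LN of BALB/cA origin, and each was measured unstimulated and after 2 days with 1 µg/ml of an agonistic goat polyclonal antibody to LTβR, the lymphotoxin β receptor. No sample received a control antibody. MEF and both lines shared culture medium with serum, which LN stroma did not see. MEF and LN stroma differed in age, tissue and culture, and both differed from the lines in strain, so these factors cannot be told apart in a comparison of these groups. Values are log2 of the deposited intensity, so 1 unit is a 2-fold difference.

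Interferons act in 3 families. Type I interferons, such as interferon β, bind the receptor made by Ifnar1 and Ifnar2 and lead to a complex holding Stat2 and Irf9 that binds interferon-stimulated response elements. Interferon γ binds the receptor made by Ifngr1 and Ifngr2 and acts through Jak1 and Jak2 on gamma-activated sites, with guanylate-binding proteins, immunity-related GTPases and Irf1 among its best known targets. LTβR, a receptor of the tumour necrosis factor family that organises LN stroma, signals through NF-κB, and NF-κB can also act on some of these promoters, among them that of Irf1.

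Promoter sequences, taken from RefSeq on build GRCm38.p6, were at hand for 26 of the 36 genes, as windows of 300 bases around each annotated start. The core of the interferon-stimulated response element, searched on both strands as GAAA, any 2 bases and GAAA again, occurred in 13 of these 26 genes (50%) and in 3.99% of 27025 genes. The letters TTCNNNGAA of the gamma-activated site were found in 8 of the 26 (30.8%) and in 9.55% of all genes. The κB site, searched as GGG, any 2 bases and TTTCC, was found in Gbp5 alone among the 26 (3.85%), against 1.89% of all genes. Only this form of the κB site was searched, so a gene without a match may hold another form. A match describes letters only and is not a binding site. The 180 bases before the start are shown for 7 genes whose levels carry the comparisons that follow, with motif matches in capitals and each written 5′ to 3′ on the gene's own strand. Ifit1 (chr19:34640709-34640888, plus strand) and Ifit3 (chr19:34583349-34583528, plus strand) separated the 2 lines. Gbp3 (chr3:142559864-142560043, plus strand) and Gbp5 (chr3:142496754-142496933, plus strand) separated LN stroma from all cultures. Irf1 (chr11:53769834-53770013, plus strand) and Bst2 (chr8:71537473-71537652, minus strand) had some of the larger antibody differences, and Irgm1 (chr11:48871421-48871600, minus strand) was nearly level on all arrays.
Ifit1: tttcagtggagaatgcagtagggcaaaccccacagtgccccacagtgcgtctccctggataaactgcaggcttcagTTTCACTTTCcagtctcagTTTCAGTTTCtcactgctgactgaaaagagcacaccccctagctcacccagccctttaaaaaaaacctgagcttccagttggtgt
Ifit3: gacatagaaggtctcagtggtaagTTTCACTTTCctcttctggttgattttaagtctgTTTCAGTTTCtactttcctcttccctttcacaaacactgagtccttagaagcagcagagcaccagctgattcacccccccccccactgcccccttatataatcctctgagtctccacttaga
Gbp3: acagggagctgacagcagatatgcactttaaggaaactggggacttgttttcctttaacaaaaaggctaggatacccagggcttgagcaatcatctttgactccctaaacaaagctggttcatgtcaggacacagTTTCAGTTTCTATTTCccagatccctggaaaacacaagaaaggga
Gbp5: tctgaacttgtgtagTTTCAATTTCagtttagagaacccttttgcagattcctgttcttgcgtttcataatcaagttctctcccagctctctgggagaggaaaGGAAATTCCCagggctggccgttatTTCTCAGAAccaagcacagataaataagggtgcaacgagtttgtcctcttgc
Irf1: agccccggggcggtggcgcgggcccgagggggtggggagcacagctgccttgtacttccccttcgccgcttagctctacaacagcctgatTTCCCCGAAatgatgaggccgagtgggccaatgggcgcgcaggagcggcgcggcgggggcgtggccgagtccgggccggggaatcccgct
Bst2: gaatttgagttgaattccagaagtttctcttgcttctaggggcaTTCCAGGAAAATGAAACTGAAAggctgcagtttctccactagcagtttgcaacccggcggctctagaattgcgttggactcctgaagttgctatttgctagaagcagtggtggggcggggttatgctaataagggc
Irgm1: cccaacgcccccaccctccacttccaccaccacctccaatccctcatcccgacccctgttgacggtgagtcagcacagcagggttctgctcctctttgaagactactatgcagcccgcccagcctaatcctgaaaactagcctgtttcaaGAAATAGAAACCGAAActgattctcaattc
Ifit1 and Ifit3 each held 2 response element matches, at 104 and 85 bases before the start in Ifit1 and at 156 and 122 bases in Ifit3. The matches of Gbp3, at 45 and 39 bases, overlapped, as did those of Irgm1, at 30 and 24 bases. In Bst2 a gamma-activated site match at 136 bases ran into overlapping response element matches at 130 and 124 bases. In the bases shown, Gbp5 held a response element match at 165 bases, a κB match at 77 bases and a gamma-activated site match at 52 bases. The capitals in Irf1 are a gamma-activated site match at 90 bases. Its bases ggggaatccc, just before the start, do not match the κB form searched, and other forms were not searched.

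The arrays had close median intensities, from 51.5 to 56.3. The labelled cell types were checked on markers. All 10 markers of fibroblastic reticular stroma lay at or above the array median on LN stroma, and Ccl19, the chemokine of T zone reticular cells, was at 12.49 there and between 6.04 and 6.39 elsewhere. Of 19 macrophage and dendritic cell markers, 14 lay at or above the median on the MEF array, against 2 to 4 on the other 5 arrays, and their summed intensity was 3642 on MEF and between 819 and 1881 elsewhere. Lymphocyte markers were at or above the median in 0 of 10 on LN stroma, with Cd3e the highest at 5.80, and Ptprc, which encodes CD45, was at 5.70. Of 12 endothelial markers 10 lay at or above the median on LN stroma, with Pecam1 at 6.44 and Tek at 8.18, against 3 or 4 on the other arrays. Their part in the levels of the interferon-stimulated genes was not tested. In whole-sample RNA, fewer expressing cells and less RNA per cell cannot be told apart.

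Across the 6 arrays, LN stroma had the highest and MEF the lowest levels of most of the 36 genes. At or above the array median were 30 of the 36 on LN stroma, 30 and 29 on the BLS4 arrays (unstimulated and antibody-treated), 23 and 21 on the BLS12 arrays and 14 on MEF. The median was taken over all entries, including those with no gene. The share of all genes at or above it on each array was not computed, so these counts have no background beside them. Of the 32 that reached the median on at least 1 array, 20 had their highest level in LN stroma, where 20.7% of all 13166 such genes did. MEF was the lowest array for 22 of them, against 18.8% of all genes, and the highest for 0, against 21.0%. BLS12 with antibody was also the highest for 0, against 13.8%. LN stroma was the lowest array for 0 of the 32, although 32.2% of all genes were lowest there. The other highest arrays were unstimulated BLS4 for 5 (13.6% of all genes), treated BLS4 for 4 (10.2%) and unstimulated BLS12 for 3 (20.8%). The other lowest arrays were unstimulated BLS12 for 6 (15.3%), treated BLS12 for 3 (15.1%), treated BLS4 for 1 (6.74%) and unstimulated BLS4 for 0 (11.9%). The genes varied widely, with a median span of 2.23 log2 units between the highest and lowest array, against 0.88 over all such genes. The heat map of levels by array shows this order.

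**Figure D1:**
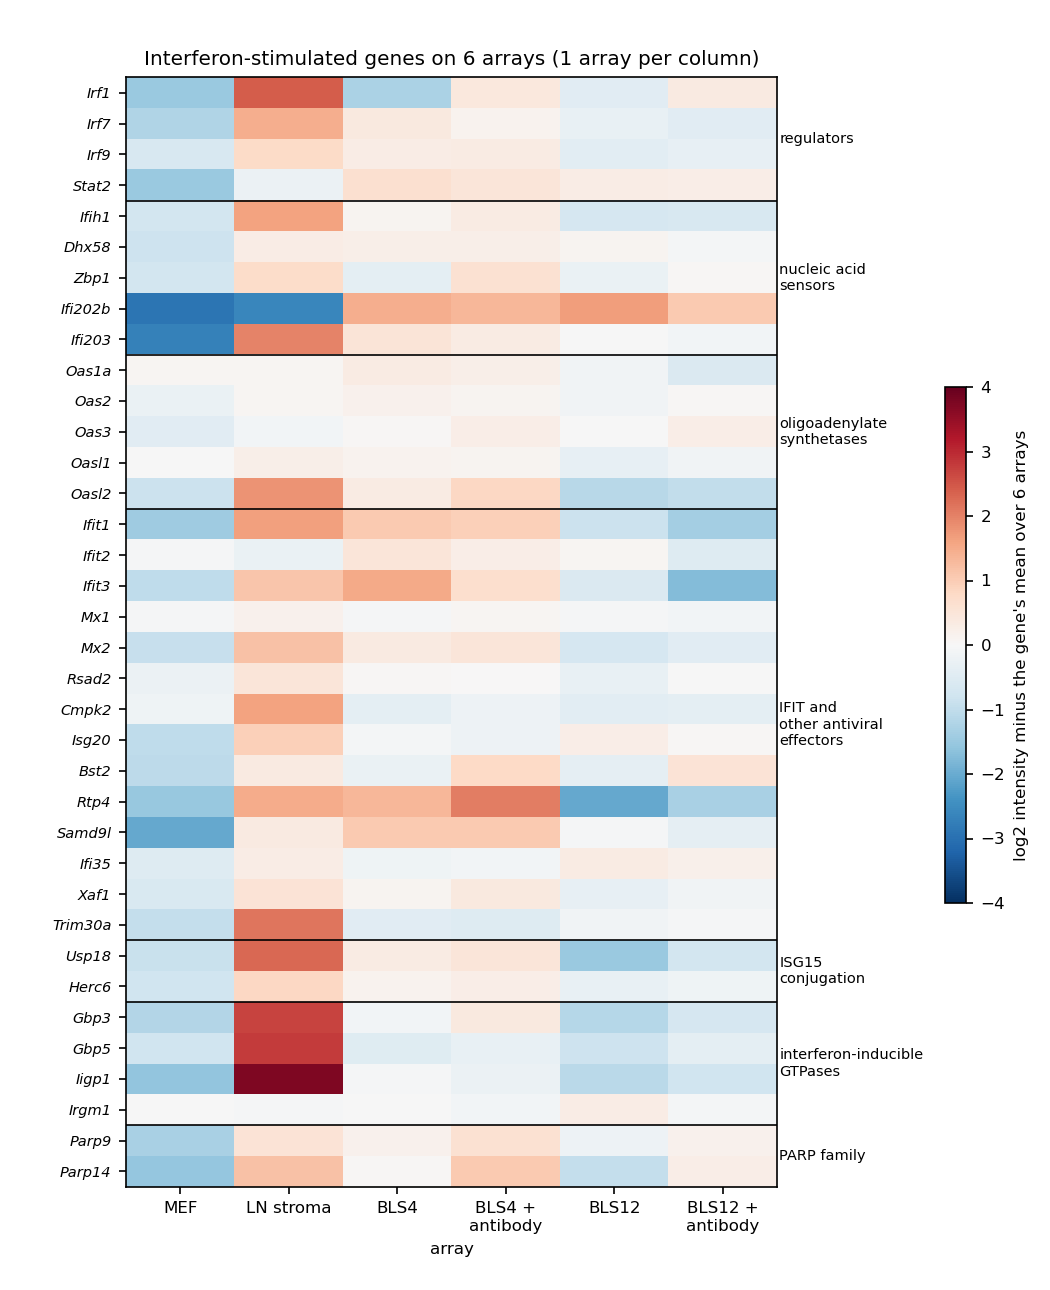
Log2 intensity of 36 interferon-stimulated genes (rows, grouped by role) on 6 arrays (columns, 1 array each), as the difference from each gene's mean over the 6 arrays. LN stroma is highest for most rows and MEF lowest, with Ifi202b low on both and Irgm1 nearly level, spanning 0.40 log2 units.

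LN stroma and MEF, the pair from the same strain, asked how the fresh stromal fraction of the node differed from cultured embryonic fibroblasts. The immunity-related GTPase Iigp1, which attacks the vacuoles of intracellular parasites, gave the widest gap of the 36 genes, followed by the p200 family gene Ifi203, Irf1, Gbp3 and Gbp5. Each group had 1 array, so these differences have no test. Of the 36 genes, 33 were higher in LN stroma than in MEF, where 49.2% of all 19938 genes were. At least 4-fold higher in LN stroma were 15 of the 30 genes that passed the intensity filter (at or above the median on at least 1 of the 2 arrays), against 4.64% of all 12613 genes that passed, and none was 4-fold lower, against 2.93%. Without the filter it was 16 of 36, against 2.96%, and 0 lower, against 1.87%. At 2-fold, 24 of the 30 were higher (10.2% of all genes) and 0 lower (12.1%). The filter keeps a gene that is bright on LN stroma alone, as were 16 of the 36. Among the 14 above the median on both arrays, 3 were at least 4-fold and 9 at least 2-fold higher in LN stroma. The share of all genes above both medians was not computed, so these counts have no background beside them. The median difference of the 36 genes was 1.82 log2 units and that of all genes -0.01.

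Iigp1 had a log2 intensity of 4.29 in MEF, 9.62 in LN stroma, 5.83 and 5.65 in BLS4 without and with antibody, and 4.78 and 5.08 in BLS12. LN stroma thus stood apart from every culture, by 5.32 units (40.0-fold) from MEF and by 3.78 to 4.83 from the 4 line arrays. Gbp3, a guanylate-binding protein, was at 4.94 in MEF, 8.83 in LN stroma, 6.00 and 6.52 in BLS4 and 5.0 and 5.45 in BLS12. Gbp5, a guanylate-binding protein that promotes inflammasome assembly, was at 3.91 in MEF, 7.52 in LN stroma, 4.24 and 4.43 in BLS4 and 3.89 and 4.33 in BLS12. Both were at least 4-fold higher on the LN stroma array than on each of the other 5. Gbp3 also lay above the array median on both BLS4 arrays, whereas Gbp5 lay below it on all 5. Their gaps between LN stroma and MEF were 3.89 and 3.61. Irgm1, which restrains the other immunity-related GTPases, was between 9.16 and 9.56 on all 6 arrays, with 9.23 in MEF and 9.21 in LN stroma. The 4 GTPases therefore did not share a pattern, with 3 of them at least 4-fold higher in LN stroma and Irgm1 level.

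Among the regulators, Irf1, a transcription factor that both interferon γ and NF-κB can switch on, was at 7.16 in MEF, 11.07 in LN stroma, 7.37 and 9.07 in BLS4 without and with antibody, and 8.21 and 9.01 in BLS12. LN stroma was highest, the treated lines came next and MEF was lowest. A fainter second entry of Irf1 kept LN stroma highest, at 6.77, and MEF lowest, at 5.64, with a smaller gap. Irf7, the factor that amplifies type I interferon production, was at 5.25 in MEF and 7.89 in LN stroma, with the lines between 6.02 and 6.83. Irf9 was at 6.71 and 8.12, with the lines between 6.92 and 7.69. Stat2, the partner of Irf9, was the exception of this group. It was at 7.02 in MEF, 8.29 in LN stroma, 9.16 and 8.99 in BLS4 and 8.80 and 8.77 in BLS12, so the lines lay above LN stroma.

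The sensors of foreign nucleic acid split in their patterns. Ifih1, the long double-stranded RNA sensor MDA5, was at 6.37 in MEF and 8.70 in LN stroma, with BLS4 at 7.21 and 7.43 and BLS12 at 6.42 and 6.46. Zbp1, a sensor of Z-form nucleic acid that can trigger necroptosis, was at 5.54 in MEF, 7.03 in LN stroma, 5.90 and 6.90 in BLS4 and 6.02 and 6.35 in BLS12. Dhx58, the regulator LGP2, differed less, with 4.97 in MEF and 5.71 to 6.10 elsewhere. Ifi203 was at 4.31 in MEF, 8.99 in LN stroma, 7.54 and 7.34 in BLS4 and 6.99 and 6.89 in BLS12, so that MEF alone was low. Its relative Ifi202b, a p200 family protein that binds DNA without a pyrin domain, was at 3.64 in MEF, 3.94 in LN stroma, 8.02 and 7.90 in BLS4 and 8.24 and 7.61 in BLS12. Both C57BL/6JJcl samples were low and all 4 arrays of the BALB/cA-derived lines were high, and strain and growth as a line cannot be told apart here. The p200 genes, like the guanylate-binding proteins and oligoadenylate synthetases, form families of similar genes, and how far the probes tell members apart was not tested.

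Antiviral effectors ranged from large to no differences. Ifit1, which binds viral RNA ends, was at 4.36 in MEF, 7.43 in LN stroma, 6.85 and 6.76 in BLS4 and 4.95 and 4.43 in BLS12. Ifit3, its partner, was at 4.86 in MEF, 7.0 in LN stroma, 7.40 and 6.55 in BLS4 and 5.29 and 4.14 in BLS12. For both, LN stroma and BLS4 were high and MEF and BLS12 low. Ifit2 did not share this, lying between 6.77 and 7.77 on all arrays, with 7.23 in MEF and 7.03 in LN stroma. Usp18, the protease that removes ISG15 and damps type I signalling, was at 5.48 in MEF, 8.69 in LN stroma, 6.72 and 6.86 in BLS4 and 4.89 and 5.64 in BLS12. Trim30a, a TRIM protein that limits NF-κB signalling, was at 5.53 in MEF, 8.64 in LN stroma and 5.97 to 6.44 in the lines, so that only LN stroma was high. Herc6, the mouse ligase for ISG15, was at 5.85 in MEF and 7.49 in LN stroma, with the lines between 6.36 and 6.91.

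Several effectors and synthetases had low levels throughout. Mx1, whose product is defective in many inbred strains, stayed between 3.63 and 3.90 on all 6 arrays. Oas3 stayed between 4.63 and 5.36, and Mx2 and Cmpk2, a nucleotide kinase of mitochondria, peaked in LN stroma at 5.60 and 5.77. These 4 genes lay below the median of every array, where the size of a difference is approximate. Rsad2, the broad antiviral enzyme viperin, was between 5.12 and 5.88. Of the oligoadenylate synthetase and synthetase-like genes, Oas1a, Oas2 and Oasl1 differed by -0.01, 0.33 and 0.25 between LN stroma and MEF. Oasl2 alone of the 5 had a wide gap, at 6.00 in MEF, 8.67 in LN stroma, 7.18 and 7.69 in BLS4 and 5.76 and 5.87 in BLS12. The remaining effectors, Isg20 (an exonuclease), Bst2 (tetherin, which holds budding virus), Samd9l, Ifi35 and Xaf1, were higher in LN stroma than in MEF by 0.83 to 2.38, and Rtp4 by 2.99. Parp9 and Parp14, ADP-ribosyltransferase family proteins, were higher by 1.86 and 2.74.

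Unstimulated lines and MEF shared a medium with serum and differed in strain. A gene had to pass the fold in both lines here, against 1 array for LN stroma. Of the 36 genes, 28 were higher than MEF in both lines, where 35.1% of all 19938 genes were. At least 4-fold higher in both lines were 3 of 30 that passed the filter, against 0.308% of all 12676 genes, and none was 4-fold lower, against 1.14%. Without the filter it was again 3, of 36, against 0.196%, and 0 lower, against 0.737%. At 2-fold, 5 of the 30 were higher (1.97% of all genes) and 0 lower (3.85%). The 3 were Ifi202b (by 4.38 in BLS4 and 4.60 in BLS12), Ifi203 (3.22 and 2.68) and Samd9l, a restriction factor of poxviruses (3.07 and 2.00). Samd9l sat at the threshold in BLS12, and after quantile normalization of the 6 arrays 2 genes passed. Taking BLS4 alone, 7 of 30 were at least 4-fold above MEF (1.15% of all genes) and 0 below (1.96%). Taking BLS12 alone, it was 3 of 23 above (1.44%) and 0 below (2.3%). This comparison and the LN stroma comparison share the MEF array. The plot of differences from MEF sets both side by side.

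**Figure D2:**
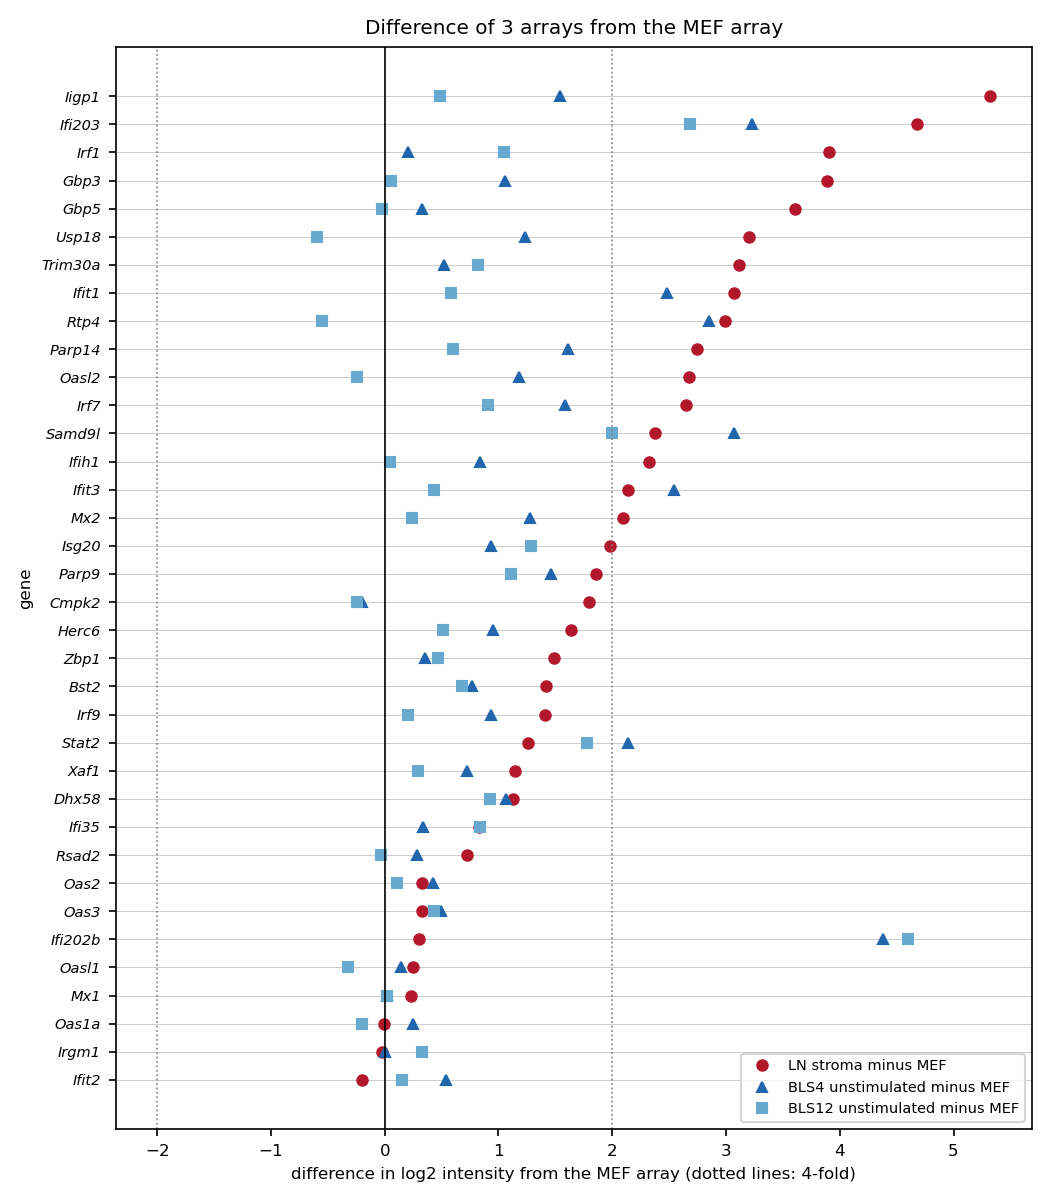
Difference in log2 intensity from the MEF array for 36 interferon-stimulated genes (rows), for LN stroma (circles), unstimulated BLS4 (triangles) and unstimulated BLS12 (squares), 1 array each. LN stroma exceeds MEF by up to 5.32 units (Iigp1), while Ifi202b is the gene in which the lines, at 4.38 and 4.60, exceed MEF and LN stroma, at 0.30, does not.

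Set against the unstimulated lines, LN stroma was higher in 26 of the 36 genes against both lines, where 33.5% of all genes were. At least 4-fold higher than both were 5 of the 32 that passed the filter, against 3.52% of all 12827 genes, and 1 was lower, against 0.569%. The 5 were Iigp1, Gbp3, Gbp5, Irf1 and Trim30a, and the 1 lower was Ifi202b, with LN stroma minus line differences of -4.08 for BLS4 and -4.30 for BLS12. Without the filter the counts were the same over 36 genes, against 2.27% and 0.366%. At 2-fold, 12 were higher (7.03% of all genes) and 1 lower (4.25%). At 4-fold with both Irf1 entries averaged, 4 genes were higher than both lines, without Irf1, and 1 was lower. Against BLS12 alone, 11 of 31 were at least 4-fold higher in LN stroma (5.08% of all genes) and 1 lower (2.71%). Against BLS4 alone it was 5 of 32 (4.62%) and 1 (1.48%). Against the antibody-treated lines 4 were at least 4-fold higher than both and 1 lower, where 3.44% and 0.647% of all 12675 genes were. Without the filter these counts held over 36 genes, against 2.19% and 0.411%, and at 2-fold 9 were higher (7.25%) and 1 lower (4.36%). LN stroma was higher than both treated lines in 26 of the 36, where 32.5% of all genes were. Against treated BLS12 alone 12 of 31 were at least 4-fold higher (5.02%) and 1 lower (1.69%). Against treated BLS4 alone it was 4 of 32 (4.33%) and 1 (1.46%), also at 4-fold. Irf1 was no longer among the genes at least 4-fold higher than both lines. Its gaps were 1.99 to treated BLS4 and 2.05 to treated BLS12, after 3.70 and 2.86 against unstimulated cells. Parp14 narrowed from gaps of 1.13 and 2.14 to 0.14 and 0.92, and Bst2 from 0.65 and 0.73 to -0.42 and -0.16. These comparisons share the LN stroma array.

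The antibody comparison asked which of these genes changed when LTβR was activated, with each line as its own control. None of the 29 genes tested passed an adjusted p of 0.05 in limma, in a design of 4 arrays with 1 residual degree of freedom, where 0.2% of all 11988 genes were called higher and 0.0751% lower. Without the filter 0 of 36 passed, against 0.191% and 0.0802%. The other 7 (Oas3, Mx1, Mx2, Rsad2, Cmpk2, Gbp5 and Iigp1) were below the intensity filter of at least 2 of the 4 arrays at or above their median. At an unadjusted p under 0.05 in limma there were 7 positive and 2 negative differences, against 5.73% and 5.91% of all genes. The 29 genes did not move as a block: 13 differed upward in both lines and 11 downward in both, against 28.4% and 31.5% of all genes. Their median difference was 0.07 as deposited and -0.01 with each array centred on its median, against -0.02 as deposited for all genes. The labels do not state whether the 2 arrays of a line go back to independent cultures, so the p-values cover the spread among these 4 samples, and that spread may be technical.

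Irf1 went from 7.37 to 9.07 in BLS4 and from 8.21 to 9.01 in BLS12, a difference of 1.25 (SE 0.235, limma adjusted p = 0.129, higher in 2 of 2 lines). With both Irf1 entries averaged the difference was 0.77 (limma adjusted p = 0.159). After treatment the lines were level, whereas BLS12 had been higher before it. Parp14, which modifies STAT signalling in macrophages, went from 7.34 to 8.33 in BLS4 and from 6.33 to 7.55 in BLS12, by 1.1 (SE 0.145, limma adjusted p = 0.0736, higher in 2 of 2 lines). Both lines differed by about the same amount, and Parp9, which pairs with it, differed by 0.45 and 0.35. Bst2 and Ifit3, which lay just under 1 unit and were singled out after their values were seen, differed in opposite directions. Bst2 went from 8.55 to 9.62 in BLS4 and from 8.47 to 9.36 in BLS12, by 0.98 (SE 0.142, limma adjusted p = 0.0827). Ifit3 went from 7.40 to 6.55 and from 5.29 to 4.14, by -1.0 (SE 0.150, limma adjusted p = 0.0885, lower in 2 of 2 lines), and in BLS12 it lay below the array median with and without antibody. With every array centred on its median Parp14 (1.03, adjusted p = 0.0432) and Ifit3 (-1.07, adjusted p = 0.0488) passed in limma. With only genes above the median on all 4 arrays Parp14 (adjusted p = 0.0343) and Bst2 (adjusted p = 0.0388) passed.

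Smaller differences at an unadjusted p under 0.05 in limma were positive in Zbp1 (1.0 in BLS4 and 0.34 in BLS12), Rtp4, a chaperone-like interferon target (0.71 and 0.76), and Gbp3 (0.52 and 0.46), besides Irf1, Parp14, Bst2 and Parp9. Besides Ifit3, Ifit2 was negative (-0.20 and -0.61). Usp18 differed by 0.14 in BLS4 and 0.75 in BLS12. The type I regulators were nearly level, with Irf7 at -0.25 and -0.14, Irf9 at 0.04 and 0.09 and Stat2 at -0.17 and -0.03. In BLS4 3 genes were at least 2-fold higher with antibody (0.968% of all genes) and none lower (0.601%), and in BLS12 1 was higher (1.6%) and 1 lower (2.13%), while 0 reached 2-fold in both lines (0.434% of all genes higher, 0.234% lower). The plot of antibody differences places the genes among all those tested.

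**Figure D3:**
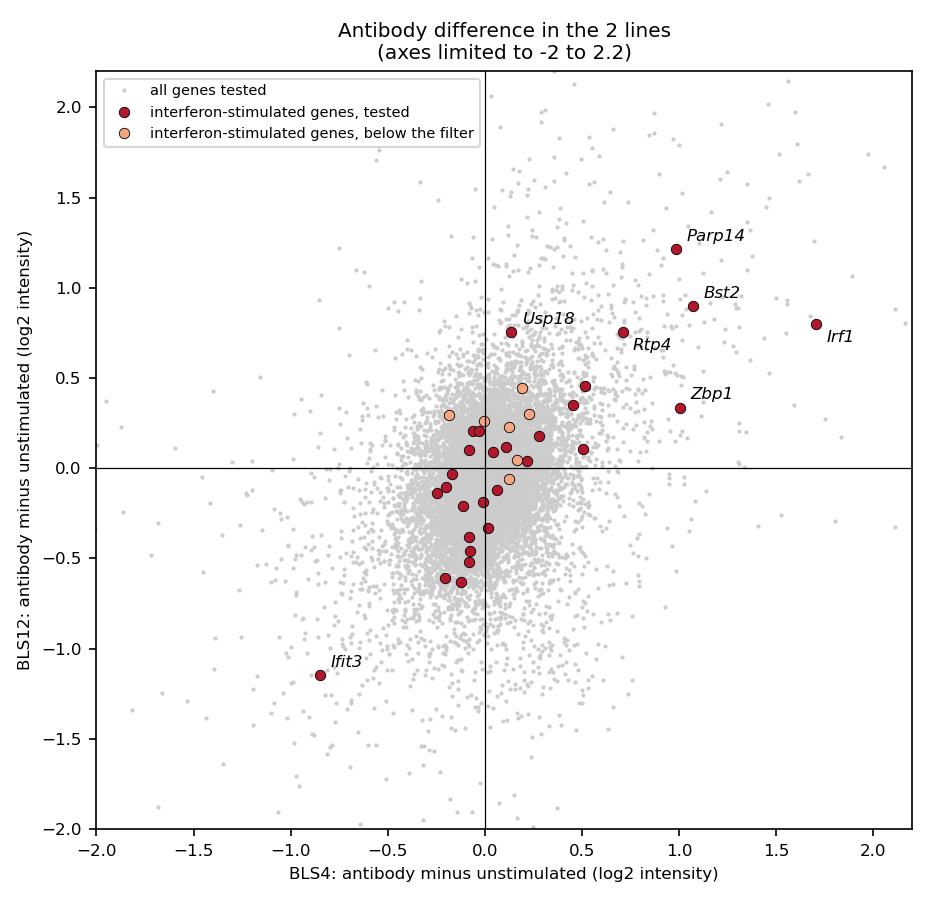
Antibody minus unstimulated log2 intensity in BLS4 (horizontal) and BLS12 (vertical) for 36 interferon-stimulated genes (large points, dark where tested) over all 11988 genes tested (grey, with points beyond the axis limits not drawn). Irf1, Bst2 and Parp14 lie at the upper right, Ifit3 at -0.85 and -1.15 at the lower left, and most others near the origin.

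Upstream of these genes, the receptors and kinases of the pathway were followed in lists chosen for their role. Of 8 interferon genes with an entry, 2 passed the filter and neither was called in limma. Ifnb1 stayed between 3.99 and 4.34 and Ifng between 4.89 and 5.15 on all 6 arrays, below every array median. All 5 receptor genes tested had positive antibody differences and an unadjusted p under 0.05 in limma, against 5.73% of all genes. None of the 5 passed over all genes, where 0.2% were called higher and 0.0751% lower. Ifngr1 went from 9.20 to 10.20 in BLS4 and from 9.13 to 10.35 in BLS12 (limma adjusted p = 0.0735), and Ifngr2 from 10.08 to 11.02 and from 9.94 to 10.79 (limma adjusted p = 0.0919). Of 10 signalling genes 0 passed, with Jak2, the kinase bound to the interferon γ receptor, closest. It went from 9.45 to 10.61 in BLS4 and from 10.05 to 11.47 in BLS12 (1.29, SE 0.147, limma adjusted p = 0.0521). Jak1 and Tyk2 differed by -0.16 and 0.24. None of the 4 signalling inhibitors and of the 9 tested genes of nucleic acid sensing passed. Among 21 other interferon targets tested, 1 rose, the chemokine Cxcl10, from 5.75 to 7.36 in BLS4 and from 5.56 to 7.36 in BLS12 (1.70, SE 0.143, limma adjusted p = 0.0305, higher in 2 of 2 lines). After quantile normalization Cxcl10 did not pass (adjusted p = 0.071 in limma). Cxcl10 was at 6.17 in MEF and 13.00 in LN stroma.

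Between LN stroma and MEF, single pathway genes had wide gaps. Ifngr1 was at 8.48 in MEF and 10.75 in LN stroma, Ifnar2 at 8.14 and 9.82, and Irf8, a factor of myeloid and B cells, at 6.39 and 8.85. The receptors did not rise together, since Ifnar1 and Il10rb differed by 0.30 and 0.25 and Ifngr2 by -0.55. At least 4-fold higher in LN stroma were 1 of 5 receptor genes and 2 of 10 signalling genes that passed the filter. None of either list was 4-fold lower, and over all genes 4.64% were higher and 2.93% lower. Socs3, a feedback inhibitor of JAK signalling, was at 6.71 in MEF, 11.68 in LN stroma and 7.87 to 9.24 in the lines. Of 23 other interferon targets that passed the filter, 10 were at least 4-fold higher in LN stroma than in MEF and 0 lower, beside 4.64% and 2.93% of all genes. Besides Cxcl10 these included Cxcl9, a chemokine that interferon γ induces, at 5.33 in MEF and 9.01 in LN stroma, and the nuclear body protein Sp100, at 4.54 and 9.05. Of 9 nucleic acid sensing genes that passed the filter, 0 were past 4-fold, 2 were at least 2-fold higher in LN stroma (Myd88 by 1.75 and Ddx58 by 1.11, where 10.2% of all genes were), and their median difference was 0.68.

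The 2 lines differed in these genes more than they responded. The same held over all 11988 genes, of which 2835 were called between the lines and 33 with antibody. The line comparison has 1 line on each side, with its unstimulated and its treated array in place of replicates. Its p-values cover the spread among these 4 arrays, with 1 residual degree of freedom, and not the spread among repeat cultures of a line. Of the 29 tested, 12 were higher in BLS4 in limma at an adjusted p of 0.05, against 11.4% of all 11988 genes, and 0 were higher in BLS12, against 12.2%. At an unadjusted p under 0.05, 17 were higher in BLS4 and 2 in BLS12, against 17.6% and 21.2% of all genes. By sign, 22 of the 29 were higher in BLS4 in both conditions (37.9% of all genes) and 4 in BLS12 (39.2%), and 6 of the 22 had entered the test only through the BLS4 arrays. Over all 36 genes without the filter it was 27 (37.4%) and 4 (31.0%). The median BLS12 minus BLS4 difference was -0.44 in unstimulated and -0.54 in treated cells, against 0.02 and -0.01 for all genes. Of the 12, 5 lay above the array median only on the BLS4 arrays and so could enter the test only by being high there. Without the filter 14 of all 36 genes were called higher in BLS4 (7.04% of all 19938 genes) and 0 higher in BLS12 (7.48%). With only genes above the median on all 4 arrays, 9 of 21 were called, all higher in BLS4, and 6 of these 9 were among the 12. In that setting 1298 of all genes tested were called higher in BLS4 and 1517 higher in BLS12, and a share is not given here.

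The widest gap was in Rtp4, at 7.96 and 8.67 in BLS4 without and with antibody against 4.56 and 5.32 in BLS12, while LN stroma was at 8.11 and MEF at 5.11. The BLS12 minus BLS4 difference was -3.38 (SE 0.137, limma adjusted p = 0.000491). BLS4 thus lay with LN stroma and BLS12 with MEF for this gene. Ifit3 differed by -2.26 (SE 0.150, limma adjusted p = 0.000974) and Ifit1 by -2.12 (SE 0.165, limma adjusted p = 0.00155), with the levels given above. In both, the gap was wider in treated cells (-2.41 and -2.34) than in unstimulated cells (-2.11 and -1.90), a difference that was not tested. Ifit2, their neighbour in the genome, differed by -0.59 and missed the threshold (limma adjusted p = 0.0501). The sizes for Rtp4, Ifit1 and Ifit3, and those given next for Usp18 and Gbp3, are approximate, since BLS12 lay below the array median.

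Oasl2, an oligoadenylate synthetase-like protein, differed by -1.62 (SE 0.161, limma adjusted p = 0.00319) and Usp18 by -1.52 (SE 0.189, limma adjusted p = 0.00601). Samd9l was at 7.47 and 7.48 in BLS4 and 6.41 and 6.07 in BLS12, a difference of -1.24 (SE 0.155, limma adjusted p = 0.00619), with both lines above the MEF level of 4.40. Gbp3 differed by -1.03 (SE 0.137, limma adjusted p = 0.00721), and BLS12 was near the MEF level. The other 5 called genes were Parp14 (-0.90), Ifih1 (-0.88), Irf9 (-0.70), Oas1a (-0.64) and Irf7 (-0.63), each with the same sign in both conditions. Without the antibody term in the model Irf7, Oas1a, Gbp3 and Parp14 no longer passed and 8 genes did. Among the 17 not called, Irf1 was higher in BLS12 by 0.84 unstimulated and differed by -0.06 with antibody. Ifi35 (0.41), Trim30a (0.39) and Isg20 (0.30) were positive in both conditions, as was Irgm1 (0.17). By size, 7 genes were at least 2-fold higher in BLS4 in both conditions (3.6% of all genes) and 0 in BLS12 (2.64%), and 5 of these 7 had passed the filter only through the BLS4 arrays. Over all 36 genes without the filter the counts were also 7 (2.2%) and 0 (1.64%).

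**Figure D4:**
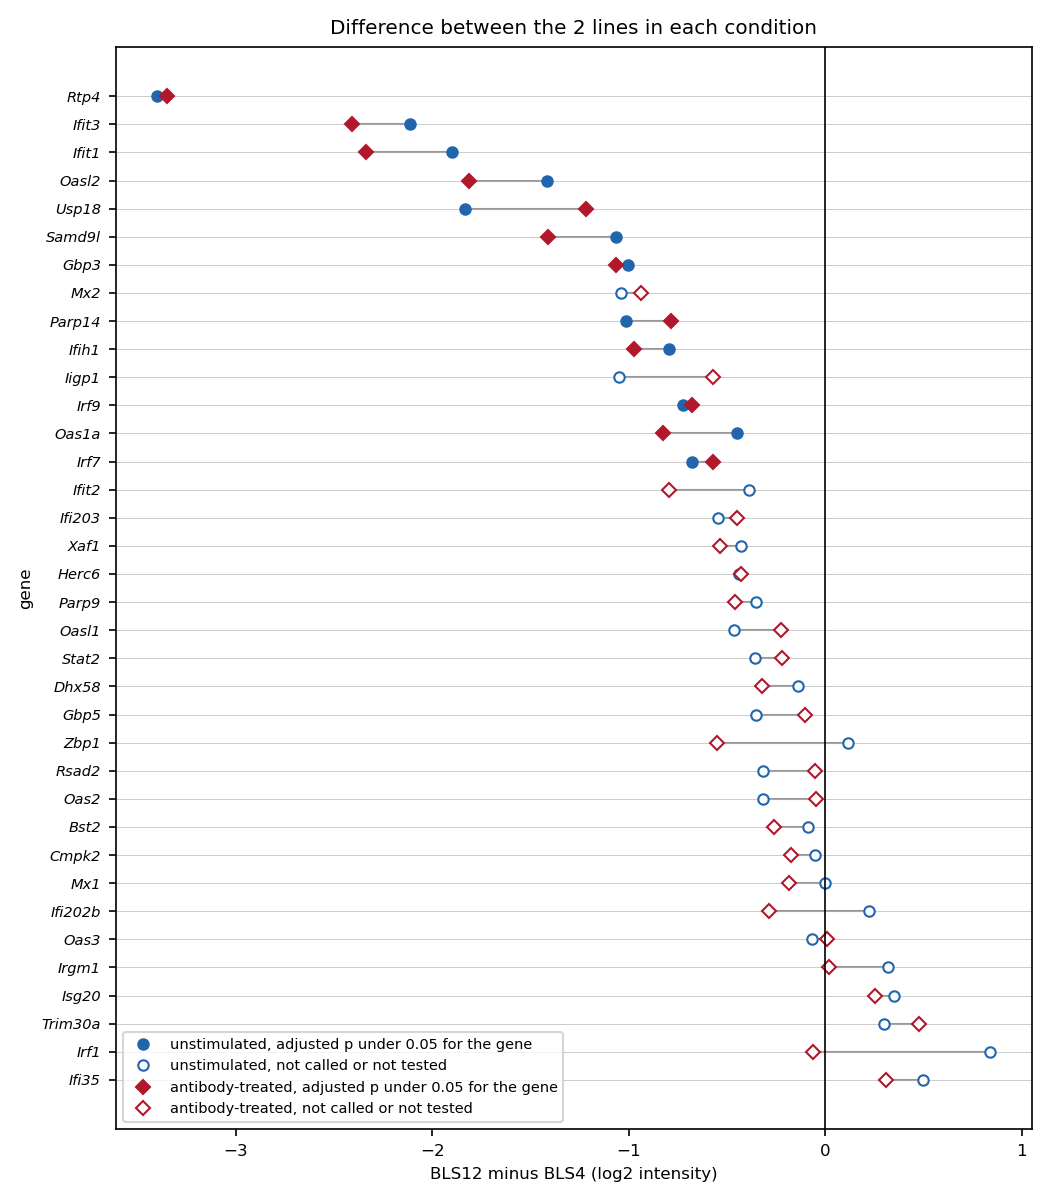
BLS12 minus BLS4 log2 intensity of 36 interferon-stimulated genes (rows) in unstimulated (circles) and antibody-treated cells (diamonds), filled where the line difference had a limma adjusted p under 0.05. All 12 filled genes lie left of 0, from Rtp4 at -3.38 to Irf7 at -0.63 averaged over both conditions.

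The pathway lists were small beside the 12.2% of all genes called higher in BLS12 and 11.4% in BLS4. Of 10 signalling genes 3 were higher in BLS12 (Nmi by 0.87, Jak2 by 0.73 and Stat3 by 0.59) and 1 in BLS4 (Jak1, -0.91) in limma, and of 5 receptor genes 0 were called. Of 9 sensing genes 2 were higher in BLS12, Sting1 by 0.74 and Tbk1 by 0.70, which lead from cytosolic DNA to interferon. The other 7 were not called, among them Tlr4 (-0.55), Ikbke (-0.40) and Mavs (-0.30). Of 4 inhibitors of JAK and STAT signalling 2 were higher in BLS12, Socs3 by 0.85 and Ptpn2 by 0.61. Of 21 other interferon targets 4 were higher in BLS4 and 0 in BLS12: Tor3a (-1.93), Lgals3bp (-0.95), Gbp7 (-0.82) and Ifi27 (-0.66). The macrophage marker list moved with the lines in 2 of its 3 tested genes, Cd53 (-3.25) and Cd68 (-1.10), both higher in BLS4. The remaining one, Lyz2, was not called and had the opposite sign (0.53), at 7.84 in treated BLS4 and 9.63 in treated BLS12. Tyrobp, Fcer1g, C1qb and Adgre1 lay below the array median on all 4 line arrays. From the list of epithelium and mesothelium, 3 of the 5 tested passed in limma with BLS12 the higher line, Upk3b (3.06), Msln (1.90) and Krt19 (1.34). The part of either marker list in the line difference was not tested.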

How the data were processed

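Expression was measured in 6 samples on 1 single-colour array each. The deposited values were linear intensities per probe set entry. The submitters' processing notes name Affymetrix Expression Console 1.1. How signals were summarised and normalized, and on which build, is not given in the sources used here. Of 35557 entries, 21789 had 1 gene in the platform annotation, 1621 several and 12147 none, and only the first were used. The brightest entry on average stood for each of 999 genes with several. Intensity values were turned to log2 with no floor, since the lowest intensity was 3.55. No detection call entered, so each array's median served as the filter. Arrays carry no counts, and their number limits the precision.

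The antibody and line differences came from 1 additive model over the 4 line arrays, fitted across 11988 genes with limma 3.58.1 in R 4.3.3 (lmFit and eBayes, two-sided, Benjamini-Hochberg over all genes tested). It had 1 residual and 4.59 prior degrees of freedom. The lines pair the samples, because each line gave 1 array with and 1 without antibody, so cell line is a block of the model for the antibody difference. For the line difference the antibody term takes that place. On simulated data with 200 changed genes among 11988, it recovered 57.2% of antibody differences of 1 log2 unit and 99.2% of those of 2 units, with 6.93% false calls. For the line difference it recovered 54% and 98.8%, with 8.32% false calls. Of differences of 0.5 log2 units it recovered 0.8% for the antibody and 1.6% for the line, so differences of that size would mostly go uncalled. In the data 33 genes were called with antibody and 2835 between the lines. The simulated number of changed genes was set at 200 for each, so recovery in the data may differ. Groups of 1 array were compared by size, at 4-fold. Genes named one by one with statistics were those called or differing by at least 1 log2 unit, with exceptions stated. The gene set, lists and rules were chosen with earlier results of these data known. Alternatives were the scaling, the filter, the entry per gene, the block, the fold and each line alone.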

Additional observations from a re-analysis of the deposited data

Results flagged for a closer look

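The antibody difference had opposite signs in BLS4 and BLS12 for 8 of the 36 genes, with 1 array per line and condition, and the difference between the lines was not tested. Among the 29 genes tested it was 5. Opposite signs were common over all 11988 genes, of which only 28.4% were positive and 31.5% negative in both lines. The 8 are listed for their sign alone. In BLS12 minus BLS4 terms it was 0.48 for Iigp1 (-0.18 in BLS4, 0.30 in BLS12), -0.35 for Samd9l (0.01, -0.33), 0.27 for Oas2 (-0.06, 0.21), 0.26 for Rsad2 (-0.01, 0.26), 0.24 for Oasl1 (-0.03, 0.21), -0.19 for Ifi35 (0.06, -0.12), 0.18 for Trim30a (-0.08, 0.10) and -0.18 for Mx1 (0.12, -0.06). Iigp1, Rsad2 and Mx1 were below the intensity filter. All of these differences are under 0.5 log2 units.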

How the results depend on the processing

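Counts of called genes in the antibody comparison went from 33 of all genes (24 higher, 9 lower) to 98 with each array centred on its median (54 and 44), 6 after quantile normalization (5 and 1), 54 with no filter, 115 with the stricter filter and 0 with no replicate block. The antibody-treated BLS12 array had a median 0.13 log2 units above the unstimulated one, and centring moved the median BLS12 antibody difference from -0.05 to -0.18. The interferon-stimulated genes called went from 0 to 2 with centring (Parp14 higher, Ifit3 lower) and to 2 with the stricter filter (Parp14 and Bst2 higher). Quantile normalization, no filter, the mean of entries and no replicate block left 0. Their median antibody difference turned to -0.01 with centring and after quantile normalization. For the line difference 1428 genes passed with no replicate block (2835 with it), and the interferon-stimulated genes called ranged from 8 to 14, all higher in BLS4. There the term left out is the antibody, and Irf7, Oas1a, Gbp3 and Parp14 lost their calls. The directions of the 12 called line differences and of the antibody differences of Irf1, Parp14, Bst2 and Ifit3 held in each of these model settings that tested them. Changing the filter or leaving out the block cannot change these estimates, and averaging entries changed only that of Irf1. For the others, only centring and quantile normalization could have turned a direction. Of the 29 antibody differences, those of Irf9, Oas2 and Trim30a turned sign with centring, and those of Oas2 and Trim30a after quantile normalization, the largest of them 0.07 as deposited. At 2-fold in place of 4-fold, 24 genes differed between LN stroma and MEF, 5 between the lines and MEF, 13 between LN stroma and unstimulated lines and 10 between LN stroma and treated lines. Leaving out a line gave 2 to 3 genes past 2-fold with antibody, 3 to 7 past 4-fold for the lines against MEF, 6 to 12 for LN stroma against unstimulated lines and 5 to 13 against treated lines. With 1 line left the model has no residual degrees of freedom and was not fitted. The cause of these changes was not tested.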
